A study of Mus musculus with 6 samples.

Results

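The chemokine system of the mouse corneal epithelium was examined in 53 genes of the 17866 in the deposited table. They were all genes whose symbol begins with a chemokine stem (Ccl, Cxcl, Xcl, Cx3cl) or a chemokine receptor stem (Ccr, Cxcr, Xcr, Cx3cr, Ackr) directly followed by a digit. The set held 32 ligands and 21 receptors. Chemokines are small secreted or membrane-tethered proteins that form gradients on tissue glycans and guide leukocytes into and through tissues. They act on G-protein-coupled receptors carried mostly by leukocytes, whereas the atypical receptors, named Ackr, bind chemokines and remove them without the usual G-protein signal. Many chemokine genes are classical targets of NF-κB, the transcription factor family whose main activating subunit is RelA, and in the cornea they are best known for drawing neutrophils and monocytes to wounds and infections.

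The study asked how loss of RelA affects corneal epithelial homeostasis and identity. Corneas of C57BL/6 mice aged 6 months were stripped of their epithelial layer, and that layer was profiled by bulk RNA-seq in 3 WT and 3 Rela-/- samples (called KO here). According to the study's methods the mutants were Krt14-Cre; Rela f/f mice, in which the recombinase follows the Krt14 promoter, so that deletion is not limited to the cornea but reaches other Krt14-expressing epithelia such as skin. The control genotype is given only as WT, the sex of the animals is not given in the sources used here, and each library came from a separate biological sample. No experimental treatment or injury separated the groups. The corneas themselves differed, however. The paper reports that the mutants lost their central corneal epithelium with age and had open corneal wounds. By 6 months a thick, keratin-covered epithelium lay over their central cornea, with leukocytes and vessels in the stroma.

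The Rela transcript was counted 1871, 1844 and 1855 times in the WT libraries and 318, 223 and 313 times in the KO libraries, a log2 fold change of -2.60 ± 0.14 (SE, edgeR adjusted p = 2.74e-06). The libraries held between 20158404 and 20880347 estimated counts each. The 53 chemokine system genes together took only 2440 to 2670 of these counts in WT and 2140 to 2630 in KO. At this depth 3 counts in a library, the limit that a count of 0 allows, corresponded to 0.137 to 0.152 CPM (counts per 1000000, with library sizes scaled by trimmed mean of M-values, TMM). All intervals and floors given here cover counting error only.

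Markers of the cell types that carry chemokine receptors differed between the same libraries, and all 5 corneal epithelial markers (Krt12, Pax6, Krt5, Aldh3a1, Cdh1) were lower in KO, their sum falling from between 84800 and 88310 CPM to between 20870 and 23300 CPM. All 8 pan-leukocyte genes rose, with summed levels of 2.75 to 4.26 CPM in WT and 36.1 to 46.8 CPM in KO. The 5 tested of 7 Langerhans and dendritic cell genes rose (sums 2.85 to 6.51 CPM against 46.6 to 87.4 CPM, Clec9a at 0 in all WT libraries), as did 5 of the 6 tested macrophage and monocyte genes (30.9 to 35.1 against 60.4 to 77.0 CPM, of which Cd68, which did not pass the test, held 29.6 and 31.5 CPM on average) and the 5 tested of 8 T cell genes (1.84 to 2.08 against 16.1 to 20.6 CPM, Cd2 at 0 in WT). Of the neutrophil genes Csf3r rose and Ly6g fell. The neutrophil sum, which includes Ly6g, overlapped between the groups (3.13 to 10.4 against 2.88 to 5.15 CPM). The granule genes Mmp8, Ngp, Retnlg and Elane were at 0 in all WT libraries and each had some counts in KO, too few to be tested. B cell genes summed to at most 1.35 CPM in any library with none called, and NK cell genes, none of them tested, summed to at most 0.0930 CPM in WT and to between 0.859 and 1.11 CPM in KO. The mast cell gene Cpa3 fell. Among keratocyte and fibroblast genes Dcn, Col1a1 and Col1a2 rose and Pdgfra fell, the endothelial gene Pecam1 rose, the melanocyte genes Dct and Pmel fell, and the goblet cell genes Muc5ac, Spdef and Agr2 rose. Over all genes tested, 31.8% were called higher and 30.2% lower. Markers with too few WT counts could enter the test only through the KO libraries and so could only be higher there. How many did so was not counted. In bulk tissue, a change in the number of cells of a type cannot be told apart from a change in RNA per cell, and the part that these cell types had in the chemokine and receptor values was not tested.

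**Figure D1:**
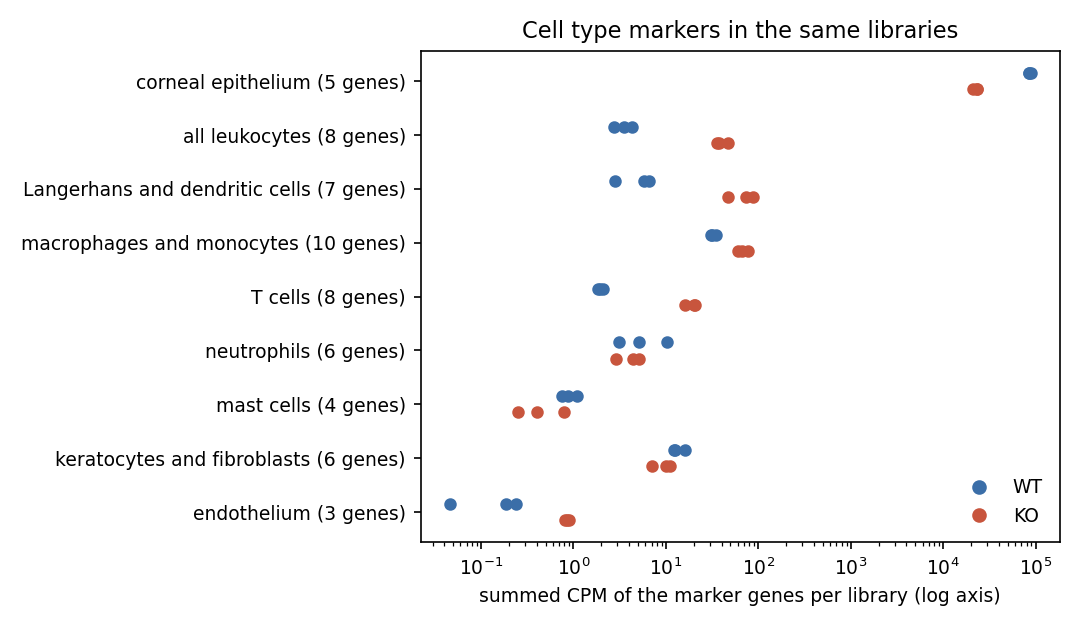
Summed CPM (log axis) of marker genes for 9 cell types in each of the 3 WT and 3 KO libraries, each point being a library. The leukocyte, Langerhans and dendritic cell, macrophage and T cell sums lie higher in all KO libraries than in any WT library, the corneal epithelial sum lies lower, and the neutrophil sums overlap.

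Of the 53 genes, 23 had enough counts to be tested and 30 did not. At an adjusted p of 0.05 or less (edgeR quasi-likelihood test, adjusted over all genes tested), 13 were higher in KO, 1 was lower and 9 did not pass. Over all 13305 genes tested, 62% were called, 31.8% higher and 30.2% lower. At the study's threshold, an adjusted p of at most 0.001 with a fold of at least 2, 8 were higher and 1 was lower, beside 11.6% and 8.24% of all genes tested. At this stricter threshold the share of the 23 that were higher was above that of all genes tested, and the share lower was below it. At an adjusted p of 0.05 or less, the share called in either direction, 60.9%, was close to the 62% of all genes tested. The share that were higher cannot be read in the same way, because 8 of the tested genes (among them Ccl22, Ccr1, Ccr2, Cxcl3, Cxcl5, Cxcr4 and Cxcr6) passed the filter on low counts through the KO libraries alone and so had to be higher there. Of the 9 genes that passed the filter in every library of both groups, Ccr9 and Cxcr2 were higher in KO, Cx3cl1 was lower, and Ackr3, Ccl25, Ccl27a, Ccl9, Cxcl14 and Cxcl16 did not pass the test. The other 6 were over the filter in libraries of both groups but not in every library. Of these, Ccl6, Cx3cr1 and Cxcl2 were higher and Ccl28, Ccr10 and Xcr1 did not pass the test. Ccl6, Cx3cr1 and Cxcl2 were over the filter in all 3 KO libraries and in only 1, 2 and 1 WT libraries, so their rises carry part of the same limit. In 17 of the 23 the CPM values of the groups did not overlap, as in 68.7% of all genes tested, and these 17 included all 14 called. The median log2 fold change was 1.23 over the 23 tested chemokine system genes and 0.01 over all tested genes, with the same limit from the filter. More genes of the set were detected at all in KO, where 42 to 49 had any count, than in WT, where 29 or 30 did. The same count over all genes was not taken, so this difference cannot be read as one of the set. The plot of fold changes shows the ligands and receptors separately.

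**Figure D2:**
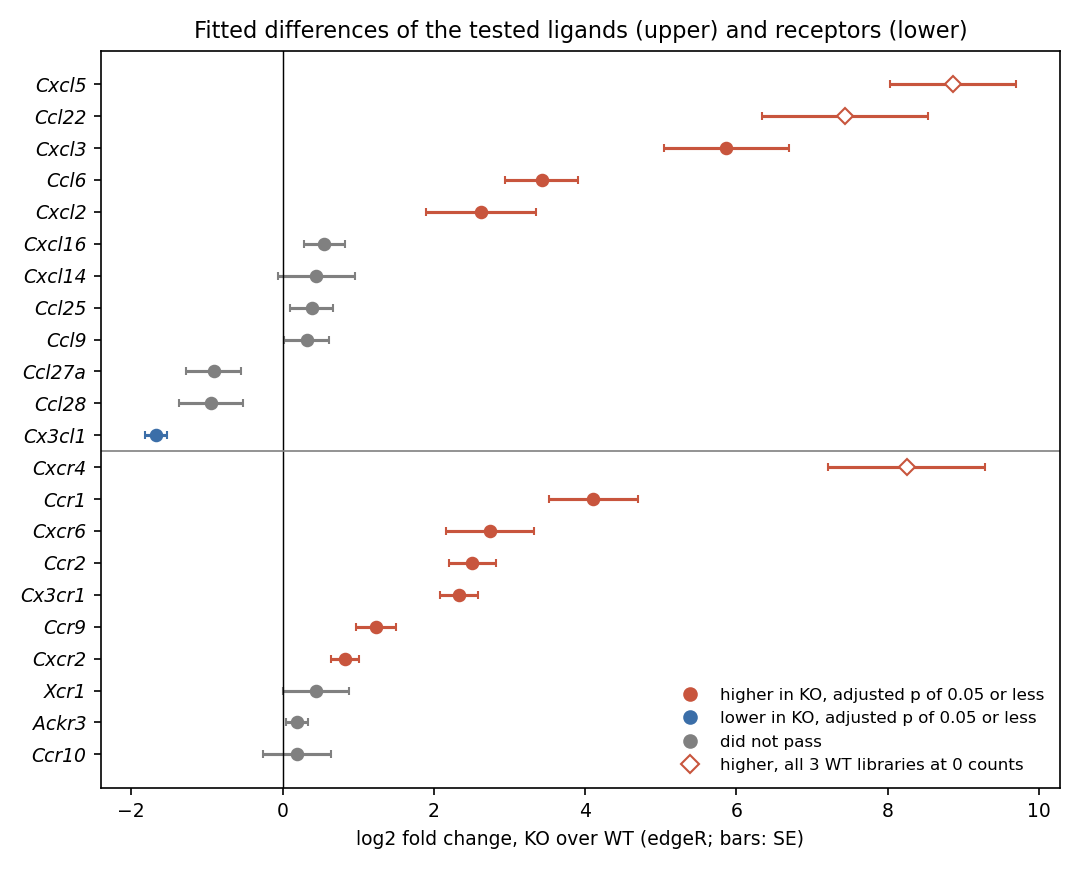
Log2 fold change of KO over WT with its SE (edgeR) for 12 tested ligands and 10 tested receptors, colored by call. Among the ligands 5 were higher and Cx3cl1 alone was lower; among the receptors plotted 7 were higher and none was lower; for the 3 open diamonds all WT libraries were at 0 counts, so that the plotted size depends on the count added in the fit.

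Cx3cl1 encodes fractalkine, a chemokine that epithelial and endothelial cells carry on a membrane stalk until proteases shed it. It was the most abundant chemokine transcript of the WT epithelium. It was counted 1594, 1261 and 1391 times in the WT libraries and 500, 364 and 369 times in the KO libraries. Every KO value lay far below every WT value. The level fell from 65.9 ± 7.18 to 20.7 ± 4.04 CPM (SD, n = 3), to 31.4% of WT, a log2 fold change of -1.67 ± 0.15 (SE, edgeR adjusted p = 3.77e-05). Cx3cl1 was the single member of the set called lower. It was also the only ligand called at a mean of 100 counts or more, so that the ligands that rose were all of low abundance.

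Cxcl16, a transmembrane chemokine that also acts as a scavenger receptor for oxidized lipoprotein, was counted 235, 400 and 461 times in WT and 466.63, 381 and 648 times in KO. The groups overlapped, and the difference did not pass the test (log2 fold change 0.55 ± 0.27 SE, edgeR adjusted p = 0.109). With the replicate number as a block it did (log2 fold change 0.57, edgeR adjusted p = 0.0487). The table's span of Cxcl16 shares 363 bases with that of Zmynd15.

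The skin and mucosal chemokines Ccl27a and Ccl28, both ligands of Ccr10, were low in the epithelium. Ccl27a was counted 71.71, 49.15 and 26.17 times in WT and 23.68, 25.82 and 21.60 times in KO. In counts the KO values lay just below the lowest WT value, in CPM the groups overlapped, and the difference did not pass the test (log2 fold change -0.91 ± 0.37 SE, edgeR adjusted p = 0.0573). Without WT replicate 3, the log2 fold change was -1.19 and the call was made (edgeR adjusted p = 0.0110). The estimated counts of Ccl27a and Ccl28 were not whole in any library, which arises where reads are divided between several possible origins. Ccl28 had 28.63, 29.04 and 42.20 counts in WT against 23.90, 17.31 and 7.06 in KO (log2 fold change -0.94 ± 0.42 SE, edgeR adjusted p = 0.0819), and without KO replicate 1 it passed the test at a log2 fold change of -1.36 (edgeR adjusted p = 0.0372). Their receptor Ccr10, which skin-homing T cells carry, had 7 to 17 counts in WT and 8 to 18 in KO. Cxcl14, an epithelial chemokine kept on in healthy skin, ranged from 13 to 47 counts in WT and from 26 to 68 in KO, and its groups overlapped.

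Levels of different genes were compared per length, as the deposited FPKM values, in which counts are scaled to gene length and library size. The summed ligand level was 39.0 ± 1.29 FPKM in WT and 39.4 ± 9.39 FPKM in KO (SD, n = 3), but its makeup differed. Cx3cl1 supplied 55.2% of the ligand FPKM in WT (51.1 to 62.1% over the libraries) and 16.7% in KO (11.1 to 22.0%). Cxcl16 supplied 24.0% in WT and 31.2% in KO, where it was the most abundant ligand, and these ranges overlapped. Ccl27a was the third ligand of WT with 10.7%, against 5.15% in KO. In KO Ccl6 with 7.10% and Cxcl2 with 5.59% followed Cxcl16 and Cx3cl1. KO replicate 3 had the highest ligand sum, 50.2 FPKM against 34.6 and 33.3 FPKM in KO replicates 1 and 2, and it held the highest KO value of 25 of the 53 genes, against 11 in KO replicate 1 and 16 in KO replicate 2.

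The summed receptor level was 12.4 ± 0.12 FPKM in WT and 18.8 ± 0.74 FPKM in KO (SD, n = 3), and the 2 groups did not overlap. Most of it came from Ackr3, an atypical receptor that binds Cxcl12 and Cxcl11 and is expressed by many non-leukocyte cells. Ackr3 was counted 408, 417 and 397 times in WT and 524, 399 and 373 times in KO. Its groups overlapped, and the difference did not pass the test (log2 fold change 0.20 ± 0.14 SE, edgeR adjusted p = 0.267). Its share of the receptor FPKM was 77.3% in WT and 53.8% in KO. Cxcr2 followed with 9.29% and 10.3%, and Ccr9 with 5.29% and 7.80%.

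**Figure D3:**
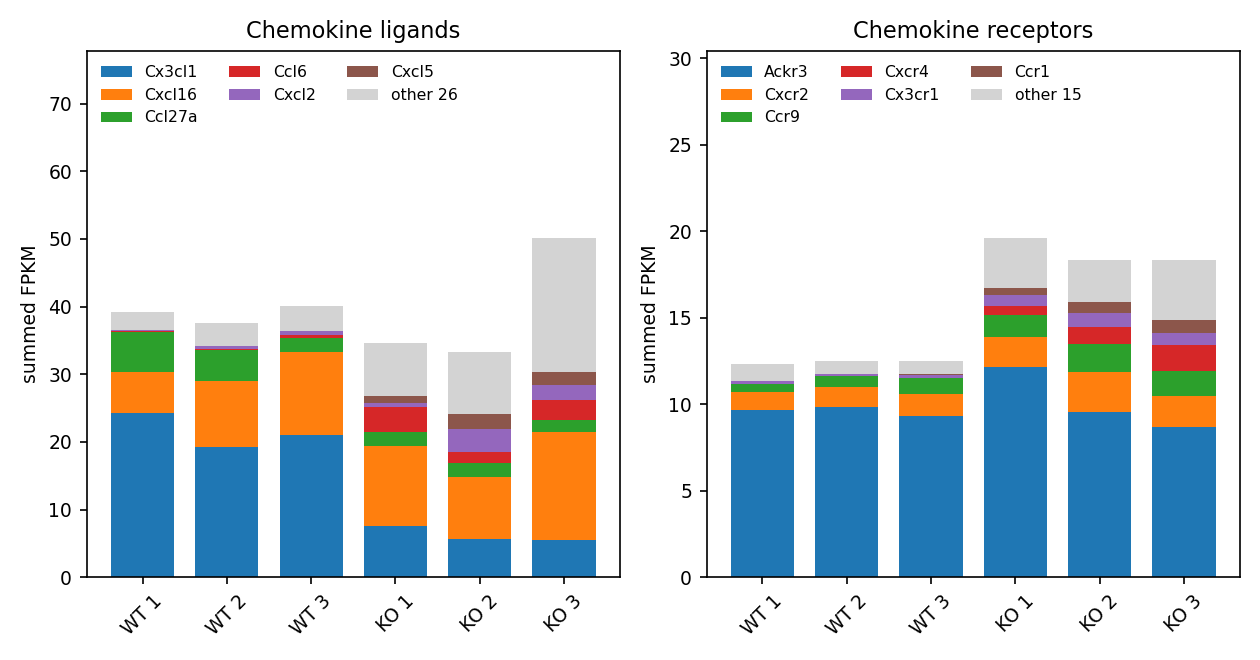
Deposited FPKM of the 32 ligands (left) and 21 receptors (right) stacked for each of the 6 libraries, with 6 genes of each class in color and the rest in gray. Cx3cl1 makes up the largest block of the WT ligand bars and Cxcl16 that of the KO ligand bars, and Ackr3 makes up the largest block of every receptor bar.

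The fractalkine receptor Cx3cr1, carried by resident macrophages, monocytes and some T and NK cells, moved opposite to its ligand. It was counted 12.68, 10.22 and 11.55 times in WT and 50.14, 58.57 and 56.43 times in KO. The groups were well apart, with little spread inside each, but the estimated counts of Cx3cr1 were not whole in any library. Its log2 fold change was 2.33 ± 0.25 (SE, edgeR adjusted p = 9.33e-05), so that the receptor rose 5.17-fold in CPM. The receptor of Cxcl16, Cxcr6, is found on resident T cells and innate lymphocytes. It was counted 3, 1 and 6 times in WT and 19, 13 and 32 times in KO. All KO values exceeded all WT values, at a log2 fold change of 2.74 ± 0.58 (SE, edgeR adjusted p = 0.00356). In the table the span of Cxcr6 lies inside that of Fyco1, and whether counting used strand is not given in the sources used here.

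The neutrophil-attracting CXC chemokines Cxcl1, Cxcl2, Cxcl3 and Cxcl5 act on Cxcr2, the receptor that brings neutrophils out of the blood. Their genes lie together on chromosome 5. The promoter sequences of Cxcl1, Cxcl2 and Cxcl3 are shown because all 3 hold the same NF-κB letters close to the start, and that of Cxcl10 because it is an interferon-inducible chemokine with such letters too. The promoter of Cx3cl1 is given as that of the ligand that fell. Each line gives the 120 bases before the RefSeq transcript start, 5′ to 3′ on the gene's strand (build GRCm38.p6), and capitals mark bases that match the NF-κB consensus.
Cxcl1 (chr5:90891125-90891244, plus strand): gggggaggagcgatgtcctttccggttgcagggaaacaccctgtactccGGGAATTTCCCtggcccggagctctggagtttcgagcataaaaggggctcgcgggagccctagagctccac
Cxcl2 (chr5:90903779-90903898, plus strand): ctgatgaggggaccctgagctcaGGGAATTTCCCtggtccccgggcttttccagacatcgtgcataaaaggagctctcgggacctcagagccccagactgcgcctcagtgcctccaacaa
Cxcl3 (chr5:90785981-90786100, plus strand): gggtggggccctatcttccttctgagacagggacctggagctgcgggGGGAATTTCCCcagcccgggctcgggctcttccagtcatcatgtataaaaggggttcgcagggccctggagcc
Cxcl10 (chr5:92348890-92349009, minus strand): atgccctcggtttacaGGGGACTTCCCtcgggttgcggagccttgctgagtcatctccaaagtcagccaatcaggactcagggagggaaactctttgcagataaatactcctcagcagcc
Cx3cl1 (chr8:94772060-94772179, plus strand): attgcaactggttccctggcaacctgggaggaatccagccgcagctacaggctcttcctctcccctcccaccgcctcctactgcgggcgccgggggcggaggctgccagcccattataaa

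Cxcl1, Cxcl2 and Cxcl3 shared the run GGGAATTTCCC, whose first base lay 71, 97 and 73 bases before the start and which holds 2 overlapping matches. RefSeq windows of 250 bases before to 50 bases after the start were at hand for 40 of the 53 genes (47 windows), among them 12 of the 14 called. The NF-κB letters, searched on both strands, occurred in 10 of the 47 windows, 21.3%, against 8.46% of the 32851 windows of all genes. Of the 11 windows of genes called higher, 3 held them (Ccr1, Cxcl2 and Cxcl3), and the window of Cx3cl1 did not. The interferon-stimulated response element occurred in 4.26% of the windows against 3.44% of all, and the STAT element, TTCNNNGAA, in 6.38% against 8.3%. Matches of different motifs did not overlap in these windows. A match describes letters in these windows and is not a measured binding site.

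Cxcl2 was counted 1, 10 and 13 times in WT and 15.09, 73.64 and 50.77 times in KO. The lowest KO value lay just above the highest WT value, and both groups were widely spread. The log2 fold change was 2.63 ± 0.73 (SE, edgeR adjusted p = 0.0130), the highest adjusted p among the called genes. Cxcl3 had 0, 1 and 0 counts in WT against 11.91, 35.36 and 28.23 in KO. The groups were apart (edgeR adjusted p = 0.000404), and with a single WT count the ratio of summed counts, scaled to library size, was 82.0 with a 95% counting interval of 14.3 to 3280. Cxcl5 was at 0 in all WT libraries and at 33.27, 71.99 and 63 counts in KO. It was at least 20.1-fold higher in KO, taking 3 counts in each WT library as the floor (edgeR adjusted p = 0.000182). Cxcl1 had 0, 3 and 8 counts in WT against 10, 9 and 45 in KO and was not tested. Its KO values were all above WT, but 2 of them only slightly.

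The receptor side of this axis was measured in every library. Cxcr2 was counted 67.94, 71.19 and 81.91 times in WT and 107.69, 143.30 and 112.03 times in KO. The groups did not overlap, and the rise was moderate, 1.77-fold in CPM (log2 fold change 0.82 ± 0.19 SE, edgeR adjusted p = 0.00512). Its estimated counts were not whole in any library. Cxcr1, the other receptor of this axis, had at most 1 count in any WT library and at most 3 in any KO library. Cxcl15, a lung chemokine placed in the same gene cluster, had 0.93 to 2.11 counts in WT and 0 in KO, which is under the floor in both groups.

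Ppbp, which encodes the platelet and leukocyte chemokine also called Cxcl7, lies between Cxcl5 and Cxcl3 (chr5:90768518-90770063) and carries no chemokine stem in its symbol, so it was counted among linked genes and not among the 53. It was counted 1, 13 and 3 times in WT and 442, 1124 and 1116 times in KO. All KO values were far above WT (log2 fold change 7.38 ± 0.60 SE, edgeR adjusted p = 2.24e-05). At 40.7 ± 18.0 FPKM in KO (SD, n = 3), its level was about that of all 32 ligands of the set summed. Pf4, the other platelet chemokine of that region, had 0 counts in WT and 2 to 5 in KO.

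**Figure D4:**
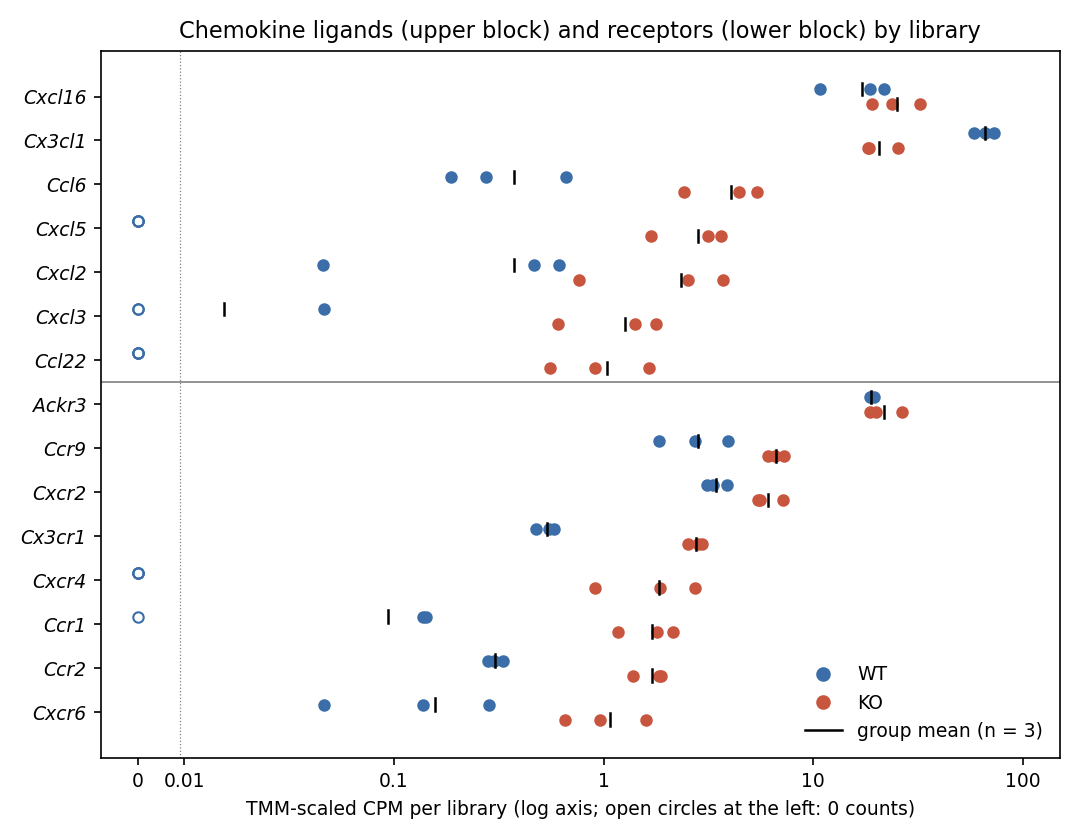
TMM-scaled CPM (log axis) in each of the 3 WT and 3 KO libraries for 13 called genes and for Cxcl16 and Ackr3, ligands above and receptors below the line, with group means as bars and counts of 0 as open circles at the left. For these 13 called genes no KO point overlaps the WT points, whereas those of Cxcl16 and Ackr3 do.

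The interferon-inducible ligands Cxcl9 and Cxcl10 and their receptor Cxcr3, which together recruit activated T cells and NK cells, were not tested, because each exceeded the filter of 0.482 CPM in only 2 KO libraries and in no WT library. Cxcl10 had 1, 1 and 0 counts in WT against 19, 7 and 59 in KO. Its KO values were all higher but differed widely from each other, and the ratio of summed counts was 45.8 (95% counting interval 12.3 to 385). Cxcr3 had 0, 0 and 1 counts in WT against 16, 8 and 19 in KO, a ratio of 46.4 (7.89 to 1874). Cxcl9 had 2.41 to 5.97 counts in WT and 5.38 to 27.22 in KO, so that its groups overlapped. In the table the span of Cxcl10 lies inside that of Art3.

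Among the CC chemokines of monocytes and macrophages, Ccl6 stood highest. Ccl6, a myeloid chemokine of rodents, was counted 6, 4 and 14 times in WT and 106, 48 and 89 times in KO. The groups were clearly apart, at a log2 fold change of 3.43 ± 0.48 (SE, edgeR adjusted p = 0.000382). Its neighbor Ccl9 had 11.67 to 16.69 counts in WT and 15.91 to 18.39 in KO and did not pass the test (log2 fold change 0.32, edgeR adjusted p = 0.373). Ccl3, Ccl4 and Ccl5, inflammatory chemokines of activated myeloid cells and T cells, were too low to be tested. Ccl3 had at most 3 counts in a WT library and 2 to 14.47 in KO, Ccl4 at most 1 in WT and 4 to 10.52 in KO, and Ccl5 at most 5 in WT and 3 to 6 in KO. The table's spans of Ccl3 and Ccl4 share 755 bases.

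Ccr1 and Ccr2, receptors of monocytes and macrophages, had more counts in KO. Both passed the filter on low counts through the KO libraries alone, so their tests carry the limit given above. Ccr1, the receptor that myeloid cells use for Ccl3, Ccl5, Ccl6 and Ccl9, was counted 3, 0 and 3 times in WT and 23, 36 and 43 times in KO. The groups were far apart, at a log2 fold change of 4.11 ± 0.59 (SE, edgeR adjusted p = 0.000427). Ccr2, the receptor of inflammatory monocytes for Ccl2, was counted 6.15, 6.43 and 7.01 times in WT and 27.25, 36.79 and 37.86 times in KO. The values were close within each group, and the log2 fold change was 2.51 ± 0.31 (SE, edgeR adjusted p = 0.000205). The estimated counts of Ccr2 were not whole in any library, so that its share of the reads is uncertain.

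The monocyte-attracting ligands of Ccr2 were at the limit of detection. Ccl2 had 0 to 7 counts in WT and 3 to 17 in KO, Ccl7 had 0 to 4 and 2 to 10, and Ccl12 and Ccl8 had at most 1 and 0 counts in WT and at most 3 and 4 in KO. The ranges of Ccl2, Ccl7, Ccl8 and Ccl12 overlapped between the groups. The eosinophil-attracting Ccl11 was at 0 in WT and at 10, 0 and 67 counts in KO, with most of its counts in a single library. Ccl24, another eotaxin, had at most 1 count in any library, as had the eotaxin receptor Ccr3.

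Ccl22 is a chemokine of dendritic cells and macrophages that attracts T cells through Ccr4. It was at 0 in all WT libraries and at 18, 11 and 33 counts in KO, at least 7.42-fold higher (edgeR adjusted p = 0.00132). Ccl17, the other ligand of Ccr4, had at most 1 count in WT and 1 to 2 in KO. Ccr4 had 0 to 7.10 counts in WT and 3.25 to 7.61 in KO, and its groups overlapped. Ccr7, which takes dendritic cells and naive T cells to lymph nodes, had 0 counts in WT against 6, 3 and 15 in KO and was not tested. By its KO mean it was at least 2.87-fold higher, but KO replicate 2, with 3 counts, lay at the floor itself. Its ligand Ccl21a was seen in a single KO library, at 3 counts.

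Ccr9 is the receptor for the gut and thymus chemokine Ccl25. It was counted 40.02, 58.42 and 83.24 times in WT and 120, 144.19 and 132.15 times in KO. It did not overlap between the groups and was 2.34-fold higher in KO (log2 fold change 1.23 ± 0.27 SE, edgeR adjusted p = 0.00379). Ccl25 had 15 to 17 counts in WT and 16 to 23 in KO, and the difference did not pass the test (log2 fold change 0.38, edgeR adjusted p = 0.277). In CPM the KO values of Ccl25 all lay above the WT values, by a narrow margin.

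Cxcr4, the receptor through which Cxcl12 retains and guides leukocytes and progenitor cells, was at 0 in all WT libraries and at 18, 37 and 55 counts in KO. It was at least 13.1-fold higher (edgeR adjusted p = 0.000639). Its ligand Cxcl12, a product mainly of stromal cells, had 1 count in all 6 libraries together. Xcr1, a receptor of cross-presenting dendritic cells, had 8.12 to 22.92 counts in WT and 14.73 to 20.88 in KO, and its ligand Xcl1 had none in WT and at most 3 in KO. Cxcl17, a mucosal chemokine, had 0, 1 and 2 counts in WT against 7, 8 and 33 in KO, a ratio of 17.3 (95% counting interval 5.56 to 86.6). The remaining members were low. Cxcl13 and its receptor Cxcr5, the pair of B cell follicles, had at most 4 and 4.03 counts in a library, and the receptors Ccr6 and Ccr8 at most 2 and 4. Ccl27b reached 2.86 counts in a single KO library. Of the atypical scavengers, Ackr2 had at most 1 count, and Ackr4, whose span lies inside that of Acad11, had 2 to 4 in WT and 3.17 to 15.84 in KO. In all, 12 of the 53 genes had at most 3 counts in every library and 15 were at 0 in all WT libraries.

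Several ligand genes were placed in gene clusters. On chromosome 5, Cxcl5, Cxcl3, Cxcl15, Cxcl1 and Cxcl2 lie within 146.6 kb (chr5:90759298-90905938), and the 3 tested were higher. On chromosome 8, Ccl22, Cx3cl1 and Ccl17 lie within 66.4 kb (chr8:94745684-94812038). There the gene that fell, Cx3cl1, starts 20791 bases after the end of Ccl22, which rose, and ends 22822 bases before Ccl17, which was not tested. On chromosome 11, none of the 5 genes from Ccl2 to Ccl8 was tested, and of the 5 from Ccl5 to Ccl4 only Ccl6 was called. For the clusters with several genes passing the filter through KO alone, these counts carry the limit given above.

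Genes linked to the chemokine system were read from the same fit. Of 79 listed genes 74 were in the table and 67 were tested, with 36 higher, 17 lower and a median log2 fold change of 0.45. These counts stand beside the 62% called over all genes tested, 31.8% higher and 30.2% lower, and the median of 0.01. The lists are small, and their shares were not tested against those of all genes. Among other chemokine-type genes 5 of 7 tested were higher and none was lower (median log2 fold change 1.24). Beside Ppbp, these were Gpr35, a receptor of leukocytes and gut epithelium (0.609 ± 0.276 to 22.7 ± 5.62 CPM, SD), Cd74, the invariant chain that is also the receptor of Mif (7.99 ± 3.04 to 64.3 ± 20.4 CPM), Mif itself (134 ± 11.6 to 220 ± 8.29 CPM) and Cklf.

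Post-receptor signalling genes were called in 22 of 25 tested, 15 higher and 7 lower (median log2 fold change 0.79). The 4 with the lowest p at a mean of 100 counts or more were all lower. Gnai2, an inhibitory G-protein subunit on which chemokine receptors rely, fell from 328 ± 1.62 to 152 ± 17.1 CPM (SD, n = 3; log2 fold change -1.11 ± 0.11 SE). Jak2, a cytokine receptor kinase, fell from 81.8 ± 3.40 to 43.4 ± 5.25 CPM, Arrb1, an arrestin, from 29.5 ± 8.43 to 12.1 ± 3.68 CPM, and Plcb3, a phospholipase, from 191 ± 14.6 to 132 ± 15.3 CPM. The higher ones included the hematopoietic genes Dock2, Rac2, Was, Fgr and Pik3cg, which are known from leukocyte migration.

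Of the inducing cytokines, their receptors and transcription factors, 10 of 25 tested were higher and 8 lower (median log2 fold change 0.05). Beside Rela these were led by Il4ra, the Il4 and Il13 receptor chain (11.2 ± 1.60 to 37.7 ± 3.75 CPM, SD), Il1rn, the interleukin-1 antagonist (log2 fold change 1.52 ± 0.14 SE, 79.8 ± 8.62 CPM in KO), and the alarmin Il33 (13.9 ± 5.86 to 92.0 ± 9.62 CPM). Tnf, Stat3, Irf1, Irf7, Ifngr2 and Nfkb2 were among the lower genes, and Il1a, Il1b, Il1r1, Tnfrsf1a, Il17rc, Tslp and Nfkbia were higher. For Tnf and Tnfrsf1a the CPM values of the groups overlapped. Il6, Il17a and Ifng were at 0 in all WT libraries and were not tested, nor was Il17c.

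Of the proteases and glycan genes that process, shed or display chemokines, 6 of 10 tested were higher and 2 were lower (median log2 fold change 0.53). The gelatinase Mmp2 rose from 0.0929 ± 0.0455 to 15.8 ± 3.57 CPM (SD, n = 3), and Dpp4, which trims the ends of several chemokines, from 8.69 ± 3.56 to 29.0 ± 4.83 CPM. The heparan sulfate proteoglycans Sdc1 and Sdc4 fell, from 1518 ± 74.3 to 814 ± 11.4 CPM and from 331 ± 40.6 to 166 ± 8.18 CPM. Of the sheddases of Cx3cl1 and Cxcl16, Adam10 was higher, at a log2 fold change of 0.31 ± 0.08 (SE, edgeR adjusted p = 0.00741), and Adam17 did not pass the test (0.06 ± 0.08, edgeR adjusted p = 0.527).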

How the data were processed

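RNA of the separated corneal epithelium of 3 WT and 3 Rela-/- mice (6 months) was sequenced by the authors, grouped here by the genotype labels. The authors filtered reads with SOAPnuke 1.5.2, aligned them with Bowtie2 2.2.5 and estimated expression with RSEM 1.2.12 (tools from the methods and the submitters' processing notes). The labels name an Illumina kit and the methods a rRNA-depleted DNA nanoball library. The build is given as mm9, whereas the table's coordinates are those of GRCm38, and those are printed. The authors deposited expected counts per gene, as RSEM gives them, and FPKM values, which they scaled to gene length and depth. The table also holds TPM, group averages and the authors' fold changes and p-values, which were not used. The count and FPKM columns of all 6 libraries were mapped to their samples.

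Expected counts were rounded and fitted in edgeR 4.0.16 (R 4.3.3) with TMM factors and genotype as the only term, after a filter that kept genes above 0.482 CPM in at least 3 libraries. The quasi-likelihood test was adjusted by Benjamini-Hochberg over all 13305 genes tested. Ratios use summed counts with exact 95% intervals. Only the edgeR fit was tried on simulated counts, in which a small part of the genes was changed by set folds. That setting did not model genes absent from WT or a change in most genes. Alternatives used DESeq2 1.42.0, limma 3.58.1 on log2(FPKM + 1) and log2(FPKM + 0.1), other scalings and filters, a gene length correction, a replicate block and each library left out. Labels give no link between equally numbered mice, and deviations of same-numbered libraries correlated at only 0.074, -0.029 and 0.073, so the numbers were not taken to pair them. Libraries of a group differed beyond sampling noise.

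The genes, groups and lists were chosen with earlier results of these data known. Values in every library are given for genes of the set called at an adjusted p of 0.05 or less or with a mean of at least 100 counts in either group, and other members are given by counts and ranges. For linked lists, values are given for at most 4 called genes with a mean of at least 100 counts, by lowest p. Some genes named outside that rule (the sheddases Adam10 and Adam17, Pf4, and untested members with their values) were chosen after their values were seen. Windows came from RefSeq (GRCm38.p6). A few genes that enter the counts are not reported here by name.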

Additional observations from a re-analysis of the deposited data

How the results depend on the processing

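Of 327 comparisons of a tested chemokine system gene with its value under an alternative, 316 kept their direction and their side of the threshold, 7 gained a call and 4 changed sign, and none lost a call. The 14 calls were all shared with each of the 15 alternatives in which the genes were still tested. The number of calls in the set, 14, was 23 without a filter on low counts and 3 with a mean of at least 50 counts, where only 5 genes were left to test. For ligands, the 6 calls became 11 with DESeq2, 12 without the filter and 1 with the stricter filter. For receptors, the 8 calls became 2 with the stricter filter. The extra genes without the filter were Ccl11, Ccl3, Ccl4, Ccr7, Cxcl10, Cxcl17, Cxcl9, Cxcr1 and Cxcr3, all of low count. Leaving out each library gave 14 to 19 calls in the set, 6 to 10 for ligands (10 without WT replicate 3 or KO replicate 2) and 8 to 9 for receptors. The replicate block gave 15 calls in the set (7 ligands, 8 receptors) and 50 of the linked genes instead of 53. The genes that changed sign were not called in any fit: Ccl25 was at -0.071 on the log2 scale with the gene length correction, Ccr10 ranged from -0.15 to 0.52 over the libraries left out (below 0 without WT replicate 3 or KO replicate 1), and Cxcl14 from -0.072 to 0.81 (below 0 without KO replicate 2). Ccl27a was called with total counts only (-1.01), the length correction (-1.84) and limma on both FPKM scales (-0.74 and -0.95). The causes of these changes were not tested. Depth limits the 30 untested genes, for which a missing call is not a sign of equal levels.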
